A study of Mus musculus with 14 samples.

Results

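The Hox genes encode homeodomain transcription factors that lie in 4 clusters, Hoxa on chromosome 6, Hoxb on chromosome 11, Hoxc on chromosome 15 and Hoxd on chromosome 2 of the mouse. They were examined in the forebrain of mice that lack Ctcf in excitatory neurons. Every probe set of an exon array that carried exactly 1 symbol of the form Hoxa, Hoxb, Hoxc or Hoxd followed by a number was taken. This gave 32 probe sets, 1 for each of 32 genes, of 23332 probe sets on the array. Hoxa had 8 members, Hoxb 10, Hoxc 8 and Hoxd 6. By paralog group, 6 were anterior genes (groups 1 to 3), 13 central (4 to 8) and 13 posterior (9 to 13). Hox genes with no probe set of their own were not analysed here.

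Hox genes are transcribed in order along the body axis. Each cluster's anterior genes act in the hindbrain, and its posterior genes act in the caudal spinal cord, the limbs and the genital region. Forebrain neurons keep the clusters silent under the Polycomb proteins, which place a repressive histone mark over them. CTCF, which binds DNA through zinc fingers, limits contacts between neighbouring chromatin domains. It occupies sites inside the clusters, and in cultured mouse motor neurons loss of a site between Hoxa5 and Hoxa6 lets active chromatin reach the more posterior Hoxa genes. Whether loss of Ctcf was accompanied by higher signal of any Hox gene, by cluster, region and genotype, is the question these values address.

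The study measured RNA from the cerebral cortex and the hippocampus of C57BL/6 mice at postnatal day 7, on 14 arrays. All mice carried 2 floxed Ctcf alleles. Controls had the labelled genotype CTCF; Nex-Cre (fl/fl; +/+), with no Cre, and the conditional knockout (cKO) mice had CTCF; Nex-Cre (fl/fl; +/Cre). Nex is the older name of Neurod6, and Cre in that locus acts in postmitotic excitatory neurons of the dorsal forebrain, so that interneurons, glia and vessels keep Ctcf. No group carried Cre without floxed alleles, so the Cre insertion at Nex and the loss of Ctcf cannot be told apart. There were 4 control and 4 cKO arrays of cortex, and 3 and 3 labelled hippocampus. In such tissue RNA, fewer cells of a type and less RNA per cell cannot be told apart.

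Of the arrays labelled hippocampus, control 2, cKO 1 and cKO 3 matched cortex control 3, cortex cKO 3 and cortex cKO 2, with Spearman correlations over all probe sets of at least 0.997, against at most 0.990 for every other pair of arrays. Prox1, a marker of hippocampal granule cells, was at 6.65 to 6.91 on these 3 arrays, at 6.61 to 7.20 on the cortex arrays and at 8.91 to 9.28 on the other 3 hippocampus arrays. The 3 matching arrays were set aside from every test, which left 2 control arrays and 1 cKO array of hippocampus. The labels give all mice as male, but the mean of the Y-linked genes Eif2s3y and Kdm5d was 3.61 to 4.10 on 4 arrays (cortex cKO 1 and 4, hippocampus control 1 and cKO 2) and 7.91 to 8.46 on the other 10. Levels are given as the deposited log2 values of the probe sets, and values on several arrays of a group stand in the order of their replicate numbers. Ctcf itself was 9.23 ± 0.05 (SD, n = 4) in control cortex and 7.81 ± 0.09 (SD, n = 4) in cKO cortex, a change of -1.42 (SE 0.08, limma adjusted p = 8.42e-05). In hippocampus it was 8.95 and 9.16 on the control arrays and 8.31 on the cKO array, a change of -0.75 (SE 0.13, adjusted p = 0.172).

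Promoters of 17 members, 19 start sites in all, were found among the RefSeq promoters of build GRCm38.p6, each running from 250 bases before to 50 bases after a start. They were searched on both strands for AGAGGGC, for its variant AGATGGC, for the variant AGGGGGC and for the variant AGGTGGC, all letters from the middle of the CTCF motif and none the reverse complement of another. Of the 19 promoters, 3 held a match (15.8%), against 27.6% of 32851 mouse promoters and 8.44% of 948 Olfr promoters. All 3 belong to posterior genes, as do several of the promoters without a match, such as those of Hoxa9 and Hoxd10. The other Hoxa10 start searched held no match. The 3 are shown because they are the only Hox start regions searched here in which these letters stood. Capitals mark the matched letters. The Hoxa10 and Hoxa11 matches read along the gene's strand, and the pair in Hoxd13 reads on the opposite strand, where the printed GCCCCCT is the reverse complement of AGGGGGC. A match describes the letters only, and binding of CTCF was not measured.
Hoxa10 promoter, chr6:52240805-52241104, minus strand, GRCm38.p6: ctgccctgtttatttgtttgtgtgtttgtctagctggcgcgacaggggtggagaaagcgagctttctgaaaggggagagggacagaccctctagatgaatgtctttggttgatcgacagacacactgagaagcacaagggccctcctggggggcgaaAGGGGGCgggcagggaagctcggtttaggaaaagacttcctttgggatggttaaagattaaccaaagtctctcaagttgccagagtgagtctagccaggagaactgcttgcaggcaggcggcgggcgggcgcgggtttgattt
Hoxa11 promoter, chr6:52245761-52246060, minus strand, GRCm38.p6: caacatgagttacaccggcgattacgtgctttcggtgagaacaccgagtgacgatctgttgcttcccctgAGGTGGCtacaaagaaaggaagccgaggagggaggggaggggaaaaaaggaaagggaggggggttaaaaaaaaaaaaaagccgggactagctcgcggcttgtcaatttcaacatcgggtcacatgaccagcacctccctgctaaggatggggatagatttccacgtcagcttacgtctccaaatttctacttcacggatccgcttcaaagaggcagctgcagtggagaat
Hoxd13 promoter, chr2:74667975-74668274, plus strand, GRCm38.p6: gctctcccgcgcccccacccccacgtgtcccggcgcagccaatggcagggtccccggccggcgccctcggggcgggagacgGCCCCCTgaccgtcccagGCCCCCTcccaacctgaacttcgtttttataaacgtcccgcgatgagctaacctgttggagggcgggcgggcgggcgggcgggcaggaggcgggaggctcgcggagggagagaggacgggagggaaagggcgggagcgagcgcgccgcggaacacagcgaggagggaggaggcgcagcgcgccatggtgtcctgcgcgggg

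In control cortex the Hox genes lay low on the array, and the lowest of them lay within the range of background. Their mean levels ran from 3.67 for Hoxa5 to 6.62 for Hoxd11, with a median of 5.45, against a median of 6.64 for all probe sets. The 719 olfactory receptor (Olfr) probe sets, genes silent in forebrain that serve as a guide to background, had a median of 3.50. All 32 Hox genes were above that median, 18 exceeded the 90th percentile of the Olfr probe sets (5.28) and 14 their 95th percentile (5.60). The lowest, Hoxa5, was above only 54.7% of the Olfr probe sets, and Hoxa6 above 61.9%. On single cortex arrays between 9 and 14 Hox genes exceeded that array's own Olfr 95th percentile, and at most 2 exceeded the array's median. In cKO cortex the Hox median was 5.37, and 12 genes exceeded the Olfr 95th percentile. A probe set's brightness also depends on its probes, so an order between genes is an order of signal, not of transcript. Promoters of Hox members had a median GC content of 58.0% and those of Olfr genes 35.0%; the base composition of the probes was not used here, and its part in the gap was not tested. A list of 16 other genes of caudal neural tissue, among them Cdx1 and Mnx1, had a median of 5.92 in control cortex, with 12 above the Olfr 95th percentile.

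**Figure D1:**
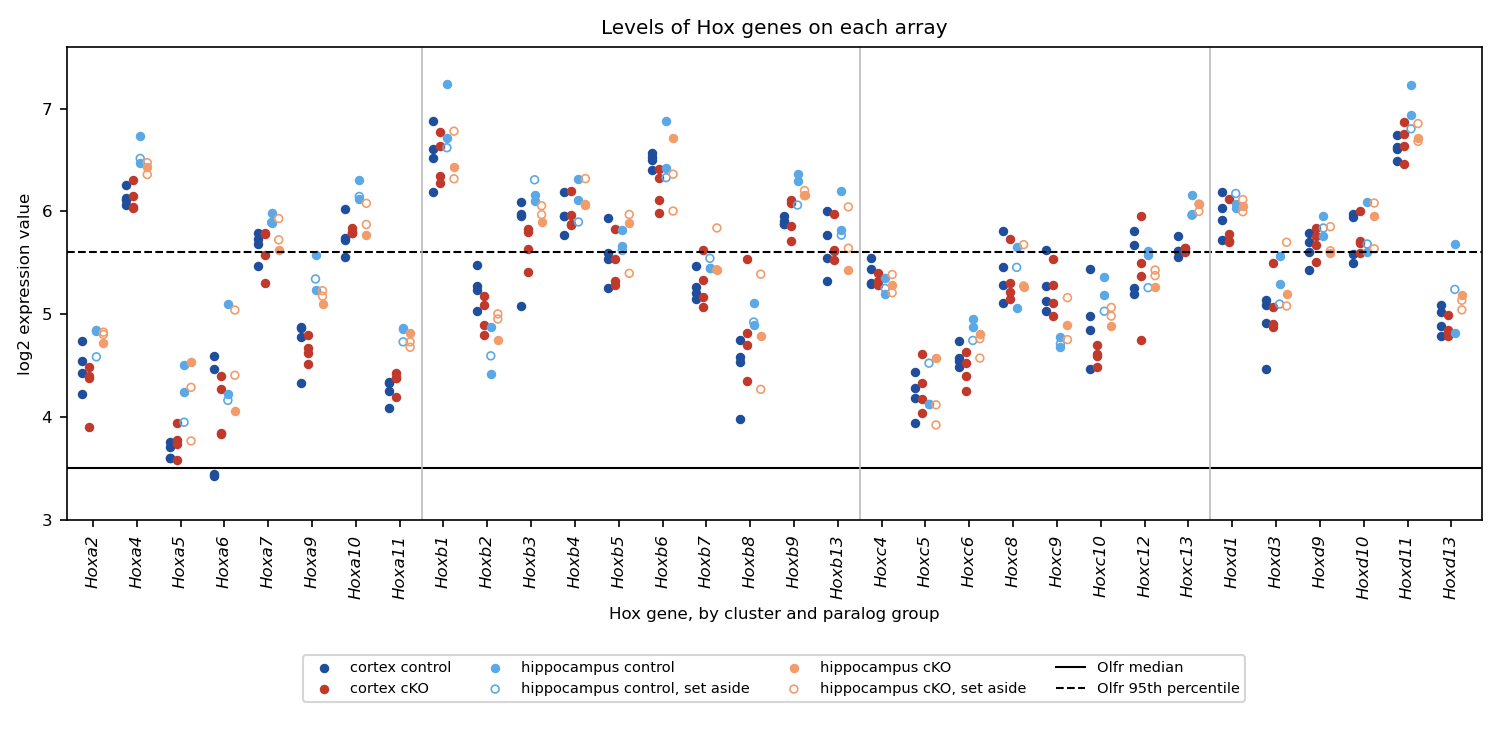
Log2 expression value (vertical axis) of each of the 32 Hox genes on each of the 14 arrays, ordered by cluster and paralog group, with 1 point per array. Filled points are arrays used in the tests, open points the 3 set aside, and the lines mark the Olfr median (3.50) and 95th percentile (5.60) in control cortex; in cortex the cKO points overlap the control points in every gene.

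By cluster, the median level in control cortex was 4.60 for Hoxa, 5.72 for Hoxb, 5.33 for Hoxc and 5.69 for Hoxd. Of the genes above the Olfr 95th percentile, 3 were in Hoxa, 6 in Hoxb, 1 in Hoxc and 4 in Hoxd. The 6 members with the highest mean over the 11 arrays used were, in order, Hoxd11, Hoxb1, Hoxb6, Hoxa4, Hoxb4 and Hoxb9. On the control cortex arrays the ranges of neighbours in that order overlapped, except that Hoxa4 (6.06 to 6.25) lay below Hoxb6 (6.41 to 6.57).

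Hoxd11, a posterior gene of limb and kidney development, was at 6.49, 6.61, 6.74 and 6.63 on the control cortex arrays and at 6.76, 6.64, 6.87 and 6.46 on the cKO arrays. Hoxb1, which sets the identity of a hindbrain segment, was at 6.19, 6.88, 6.61 and 6.52 in controls and at 6.63, 6.28, 6.78 and 6.34 in cKO. In both genes the groups interleaved. The changes were 0.06 (SE 0.11, adjusted p = 0.913) for Hoxd11 and -0.04 (SE 0.18, adjusted p = 0.972) for Hoxb1.

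Hoxa4, a central gene that patterns neck vertebrae, gave 6.13, 6.25, 6.11 and 6.06 in controls and 6.03, 6.04, 6.30 and 6.15 in cKO. Hoxb4, a hindbrain and blood stem cell gene, gave 5.96, 5.96, 5.77 and 6.19 in controls and 5.87, 5.97, 6.20 and 5.88 in cKO. Hoxb9, which acts in the thoracic skeleton, gave 5.87, 5.96, 5.91 and 5.88 in controls and 5.86, 6.11, 6.08 and 5.72 in cKO. Control and cKO arrays overlapped in each, and the changes were -0.01, 0.01 and 0.04, with standard errors of 0.09 to 0.11.

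No Hox gene was called higher or lower in cKO cortex. A gene was called where the limma fit over all probe sets gave it an adjusted p below 0.05 together with a change of more than 1.2-fold. The 4 cKO arrays were compared with the 4 control arrays, and 0 of 32 Hox genes passed, against 1.95% of all probe sets and 1.09% of the 9192 probe sets in the range of Hox levels. At an unadjusted p under 0.05 there was 1 gene (Hoxb6), and the smallest adjusted p was 0.424. The change was above 0 in 14 genes and below 0 in 18, with a median of -0.02, the same as over all probe sets (-0.02) and near that of Olfr probe sets (-0.06). In no Hox gene did all cKO arrays lie on one side of all control arrays, which held for 8.4% of all probe sets.

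The intervals bound how large a rise of signal these arrays leave room for. The upper end of the 95% interval of the change, taken gene by gene, was under a 2-fold rise for all 32 genes, under 1.5-fold for 29 and under 1.2-fold for 12. Its median was 1.22-fold and its highest value 1.94-fold, for Hoxb8. These bounds concern array signal, and near background a fold in signal can understate a fold in transcript. The median SD within groups was 0.20 for Hox genes, 0.37 for Olfr probe sets and 0.18 for all probe sets.

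**Figure D2:**
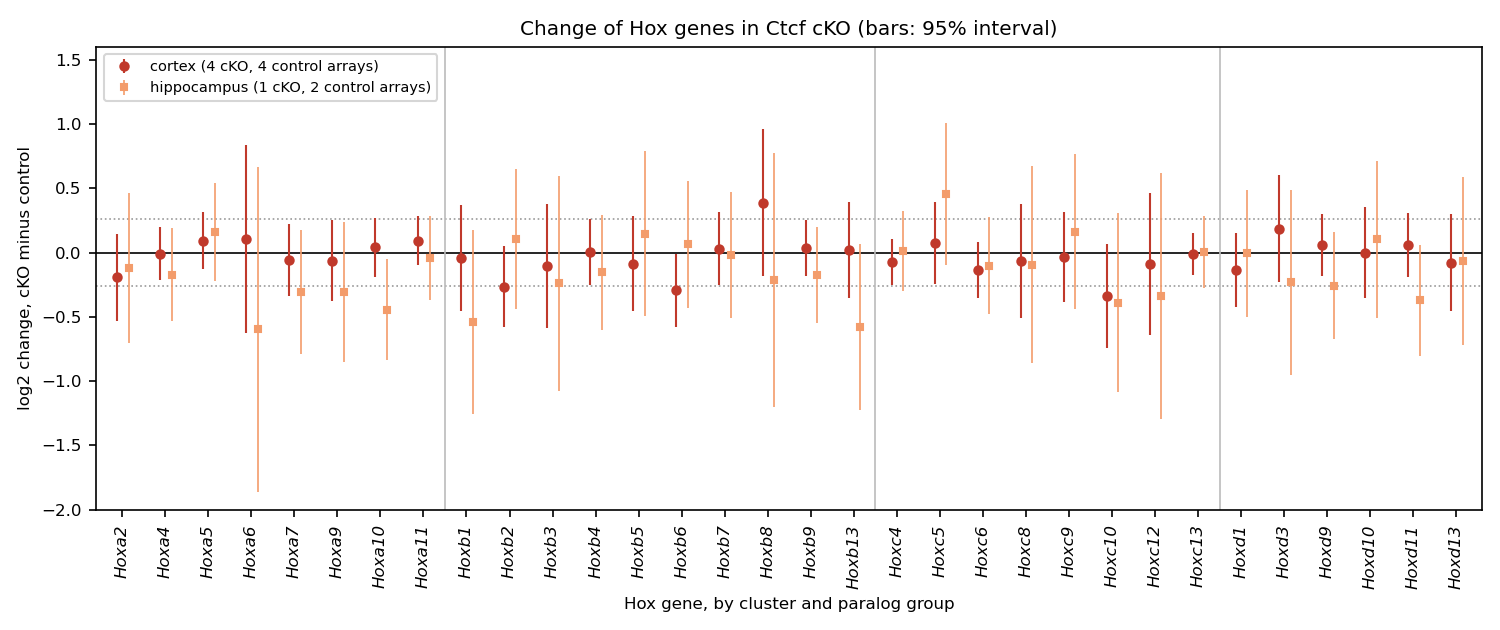
Log2 change, cKO minus control (vertical axis), of each Hox gene in cortex (circles, 4 cKO and 4 control arrays) and hippocampus (squares, 1 cKO and 2 control arrays), with bars for the 95% interval; dotted lines mark a 1.2-fold change either way. The cortex points lie between -0.34 (Hoxc10) and 0.39 (Hoxb8), and none was called.

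By cluster, the median change in cortex was 0.02 for Hoxa, -0.02 for Hoxb, -0.07 for Hoxc and 0.03 for Hoxd. In Hoxc 7 of 8 genes had a value below 0, and the smallest adjusted p in that cluster was 0.546. By paralog group the median was -0.12 for anterior genes, -0.01 for central genes and 0.00 for posterior genes. In Hoxa, where the motor neuron work places a CTCF boundary after Hoxa5, the genes on its posterior side changed by 0.11 (Hoxa6), -0.06 (Hoxa7), -0.06 (Hoxa9), 0.04 (Hoxa10) and 0.09 (Hoxa11), and those on its anterior side by -0.19 (Hoxa2), -0.01 (Hoxa4) and 0.09 (Hoxa5). Among the members with CTCF motif letters in a promoter shown above, Hoxd13, a gene of digit formation, changed by -0.08 (SE 0.17), with a mean level of 4.95 ± 0.13 in controls and 4.87 ± 0.09 in cKO (SD, n = 4 each).

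The largest positive value belonged to Hoxb8, a gene of the spinal cord and of a subset of microglial progenitors. It was at 3.98, 4.58, 4.75 and 4.54 in control cortex and at 4.70, 4.35, 5.54 and 4.81 in cKO cortex. Cortex control 1 was the lowest array and cortex cKO 3 the highest, and the groups overlapped. The difference was 0.39 (SE 0.25, adjusted p = 0.665), and it was 0.16 without cortex cKO 3 and 0.23 without cortex control 1.

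Hoxd3, which acts in the upper neck vertebrae, was at 4.47, 5.14, 4.92 and 5.09 in controls and at 5.07, 4.91, 5.50 and 4.88 in cKO. The same control 1 and cKO 3 stood at the ends, and the difference of 0.18 (SE 0.18) became 0.05 without cortex cKO 3 and 0.04 without cortex control 1. Hoxa6, a thoracic gene, was at 3.43, 4.47, 3.45 and 4.59 in controls and at 4.27, 3.84, 4.40 and 3.85 in cKO. Its control arrays fell into a low and a high pair more than 1 log2 unit apart, with the cKO arrays between them, and the difference was 0.11 (SE 0.32).

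Hoxa11, a posterior gene of the forelimb, was at 4.25, 4.09, 4.33 and 4.34 in controls and at 4.38, 4.19, 4.38 and 4.43 in cKO. Hoxa5, which acts in the phrenic motor neurons of breathing, was at 3.60, 3.71, 3.75 and 3.60 in controls and at 3.78, 3.58, 3.95 and 3.74 in cKO. Both differences came to 0.09, with standard errors of 0.08 and 0.10, and the arrays of the groups overlapped.

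The lowest value belonged to Hoxc10, which acts in lumbar motor neurons. It was at 4.85, 4.47, 4.99 and 5.45 in control cortex and at 4.59, 4.70, 4.61 and 4.49 in cKO cortex. The cKO arrays kept within a narrow range inside that of the controls, and the difference was -0.34 (SE 0.18, adjusted p = 0.546), or -0.17 without cortex control 4.

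Hoxb6, a thoracic gene, gave the smallest p of the 32. It was at 6.53, 6.57, 6.41 and 6.50 in controls and at 5.98, 6.11, 6.42 and 6.33 in cKO, so that only cKO 3 reached into the range of the controls. The difference was -0.29 (SE 0.13), with an adjusted p of 0.424 and a two-sided exact permutation p of 0.0571 over the 8 arrays.

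Hoxb2, which acts with Hoxb1 in the hindbrain, was at 5.48, 5.27, 5.04 and 5.24 in controls and at 5.18, 4.90, 5.09 and 4.79 in cKO. Hoxa2, a gene of the hindbrain and the second branchial arch, was at 4.43, 4.55, 4.23 and 4.74 in controls and at 4.38, 4.49, 4.40 and 3.90 in cKO. Hoxc6, a gene of forelimb motor neurons, was at 4.74, 4.49, 4.55 and 4.58 in controls and at 4.63, 4.26, 4.53 and 4.40 in cKO. The groups overlapped in all 3, with differences of -0.26 (SE 0.14), -0.19 (SE 0.15) and -0.13 (SE 0.10) and adjusted p values of 0.543, 0.738 and 0.710.

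In hippocampus, where 1 cKO array was set against 2 control arrays, 0 of 32 Hox genes were called, against 0.00429% of all probe sets. The cKO array has no replicate and its spread was taken from the other groups. The median difference was -0.14 over the Hox genes, 0.06 over all probe sets and -0.08 over the Olfr probe sets, and 23 of the 32 values were below 0. The smallest p was that of Hoxa10, a gene of the uterus and the lumbar spine. It was at 6.31 and 6.12 on the control arrays and 5.77 on the cKO array, a difference of -0.44 (SE 0.17). The largest positive value was that of Hoxc5, at 4.12 on both control arrays and 4.58 on the cKO array, a difference of 0.45 (SE 0.25, adjusted p = 0.870). The upper end of the 95% interval was under 2-fold for 31 genes and was 2.01-fold for Hoxc5.

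Averaged over both regions, 0 of 32 Hox genes were called (1.16% of all probe sets), with a median of -0.08, no gene at an unadjusted p under 0.05 and a smallest adjusted p of 0.572. The difference between the regions in the response was called for 0 Hox genes (0.00857% of all probe sets), with 1 gene, Hoxa10, at an unadjusted p under 0.05 and a smallest adjusted p of 0.928. In cortex Hoxa10 had been at 5.56, 5.74, 6.03 and 5.73 in controls and at 5.80, 5.79, 5.84 and 5.79 in cKO.

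Between the 4 control arrays of cortex and the 2 of hippocampus, by contrast, 8 of 32 Hox genes were called. Hoxa4, Hoxa5, Hoxa9, Hoxa10, Hoxa11, Hoxb9 and Hoxc13 were higher in hippocampus and Hoxb2 was lower, against 12.5% of all probe sets called, 6.2% higher and 6.29% lower, and 11.9% called in the range of Hox levels. The median difference, hippocampus minus cortex, was 0.33 for Hox genes, 0.28 for Olfr probe sets and 0.02 for all probe sets. Values were above 0 in 27 of 32 Hox genes and in 71.2% of Olfr probe sets. All 8 Hoxa genes had values above 0, with a median of 0.54, and 5 of them were called. The median was 0.30 for Hoxb, 0.03 for Hoxc and 0.27 for Hoxd. No such difference between clusters was tested.

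Hoxa5 was at 3.60 to 3.75 on the control cortex arrays and at 4.25 and 4.51 on the hippocampus controls, a difference of 0.71 (SE 0.12, adjusted p = 0.00747). Hoxa11 was at 4.09 to 4.34 and at 4.86 on both, a difference of 0.61 (SE 0.10, adjusted p = 0.0070). Hoxc13, a gene of hair and nails, was at 5.56 to 5.76 and at 6.16 and 5.98, a difference of 0.43 (SE 0.09, adjusted p = 0.0153). In these 3 the hippocampus arrays lay above every control cortex array. That order held for 14 Hox genes, among them genes that were not called, such as Hoxa2, and the reverse order for 2. The calls came from the same arrays, so the order is not a separate test. Its share over all probe sets is not given here.

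Hoxa9, a gene of blood progenitors and the caudal axis, was at 4.33 to 4.87 in cortex and at 5.23 and 5.58 in hippocampus, a difference of 0.69 (SE 0.17, adjusted p = 0.0317). Hoxa4 was at 6.06 to 6.25 and at 6.74 and 6.47, a difference of 0.46 (SE 0.11, adjusted p = 0.0308). Hoxa10 was at 5.56 to 6.03 and at 6.31 and 6.12, a difference of 0.45 (SE 0.12, adjusted p = 0.0452). The arrays did not overlap in these genes either, and the margin was smallest in Hoxa10.

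Hoxb9 was at 5.87 to 5.96 in cortex and at 6.37 and 6.30 in hippocampus, a difference of 0.43 (SE 0.12, adjusted p = 0.0454). Hoxb2 went the other way, at 5.04 to 5.48 in cortex and at 4.87 and 4.41 in hippocampus, a difference of -0.61 (SE 0.17, adjusted p = 0.0470). The number of calls rested on few arrays. Without hippocampus control 1, 1 of the 8 was left (Hoxa5), and without hippocampus control 3, cortex control 1 or cortex control 4 there were 4, 4 and 3 calls. Without cortex control 2, cortex cKO 1 or cortex cKO 2 there were 5 each. Of the 11 fits that each left out 1 array, Hoxa10 and Hoxb2 lost the call in 9, Hoxb9 in 7, Hoxa4 and Hoxa9 in 4, and Hoxa5, Hoxa11 and Hoxc13 in 1. With the compared groups alone 2 calls were left, and with the replicate number as a block 0.

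On the cKO arrays the levels of these genes were as follows. Hoxa5 was at 3.58 to 3.95 in cortex and at 4.53 on hippocampus cKO 2, Hoxa11 at 4.19 to 4.43 and at 4.82, and Hoxc13 at 5.61 to 5.65 and at 6.08. Hoxa9 was at 4.51 to 4.80 and at 5.10, and Hoxa4 at 6.03 to 6.30 and at 6.43. In these 5 genes the hippocampus cKO array lay above every cKO cortex array, as it did in Hoxb9, at 5.72 to 6.11 and at 6.16. This order rests on 1 hippocampus array, and the Olfr median had it too, at 3.41 to 3.57 and at 3.76. Its share over all probe sets is not given here. In Hoxa10 the hippocampus array, at 5.77, lay below the cortex arrays, at 5.79 to 5.84, and in Hoxb2 also, at 4.75 against 4.79 to 5.18.

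The signal of silent genes moved with this contrast. The Olfr median was 3.41 to 3.75 on the cortex arrays, 3.58 to 3.75 on the 3 arrays set aside and 3.76 to 4.01 on the hippocampus arrays used. The SD of all values on an array was 2.24 to 2.28 for cortex, 2.20 to 2.21 for the arrays set aside and 2.19 to 2.20 for the hippocampus arrays used. When each array was centred on its Olfr median, which put the median difference of all probe sets at -0.33, the Hox median was -0.02 and 3 Hox genes were called, all lower in hippocampus: Hoxb2 (-0.97), Hoxc4 (-0.47) and Hoxc9 (-0.88). None of the 7 genes called higher was called on that scale. Of the caudal neural list 3 of 16 were called higher in hippocampus, namely Cdx1, Mnx1 and Lmx1b, beside 6.2% of all probe sets, with a list median of 0.31.

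**Figure D3:**
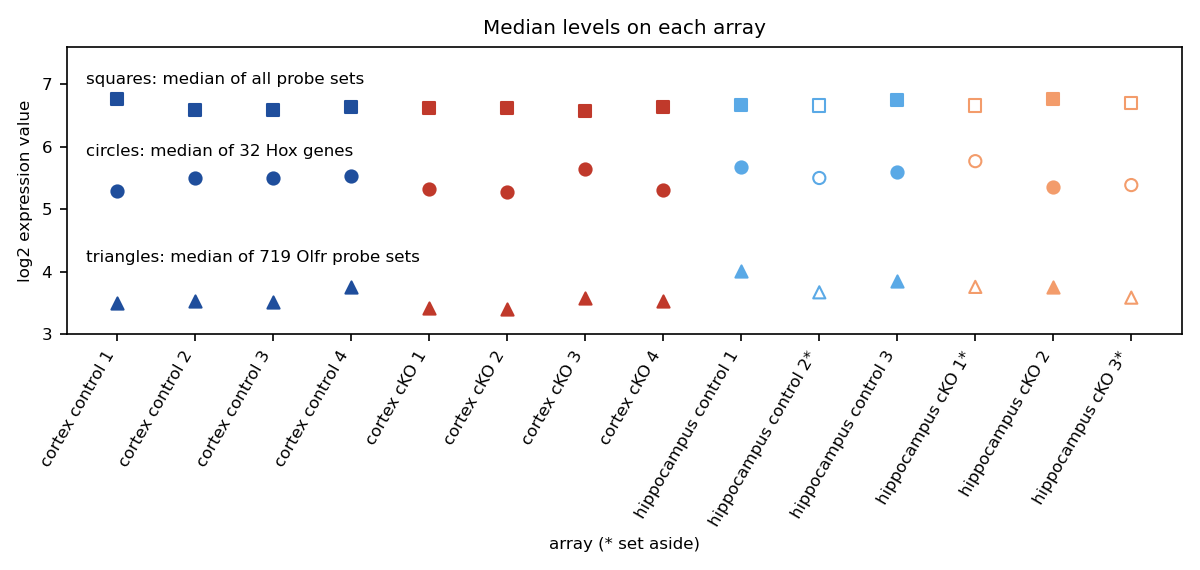
Median log2 expression value (vertical axis) of all probe sets (squares), of the 32 Hox genes (circles) and of the 719 Olfr probe sets (triangles) on each of the 14 arrays; open symbols and asterisks mark the 3 arrays set aside. The Olfr median is 3.41 to 3.75 on cortex arrays and 3.76 to 4.01 on the 3 hippocampus arrays used.

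The arrays set aside allow the same difference to be read where the profile matches cortex. Over the 3 pairs of an array labelled hippocampus and its matching cortex array, the median Hox difference was 0.15, as was that of Olfr probe sets (0.15), against 0.04 for the whole array. In all 3 pairs the array labelled hippocampus was higher for 22 of 32 Hox genes, for 51.2% of Olfr probe sets and for 44.8% of all probe sets. All 8 Hoxa genes were among the 22, with a median of 0.33 over the cluster. The pair differences were 0.41, 0.42 and 0.39 for Hoxc13, 0.47, 0.56 and 0.55 for Hoxa9, and 0.41, 0.35 and 0.49 for Hoxa11, beside 0.43, 0.69 and 0.61 between the control tissues. Hoxb9 differed by 0.15, 0.12 and 0.04, beside 0.43. The pairs gave 0.41, 0.17 and 0.32 for Hoxa4, beside 0.46. Smaller pair differences stood in Hoxa5, with 0.19, 0.34 and 0.19 beside 0.71, and in Hoxa10, with 0.12, 0.24 and 0.08 beside 0.45. In Hoxb2 the sign changed between pairs, with -0.44, -0.14 and 0.11 beside -0.61. For these genes tissue and whatever else the arrays labelled hippocampus share cannot be told apart.

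Across all 14 arrays as labelled, Hoxa4, Hoxa9, Hoxa11 and Hoxc13 were higher on each of the 6 arrays labelled hippocampus than on each of the 8 cortex arrays. That is 4 of 32 Hox genes, against 3.36% of all probe sets. The opposite order held for 0 Hox genes and 1.03% of all probe sets. On the hippocampus arrays used, markers of choroid plexus were also high: Ttr, its most abundant transcript, was at 8.28 and 12.3 on control 1 and 3 and at 11.6 on cKO 2, against 5.31 to 6.19 on cortex arrays, and 3 of the list's 5 genes (Ttr, Folr1, Kl) were called higher in hippocampus. The mean level of the 5 was 5.19 to 5.38 on cortex arrays and 6.15 to 7.47 on the hippocampus arrays used. On the 3 arrays set aside Ttr was at 5.46 to 6.19, within the range of cortex. The 4 Hox genes were picked by an order that already includes these arrays. Any part of choroid plexus in the Hox differences was not tested.

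**Figure D4:**
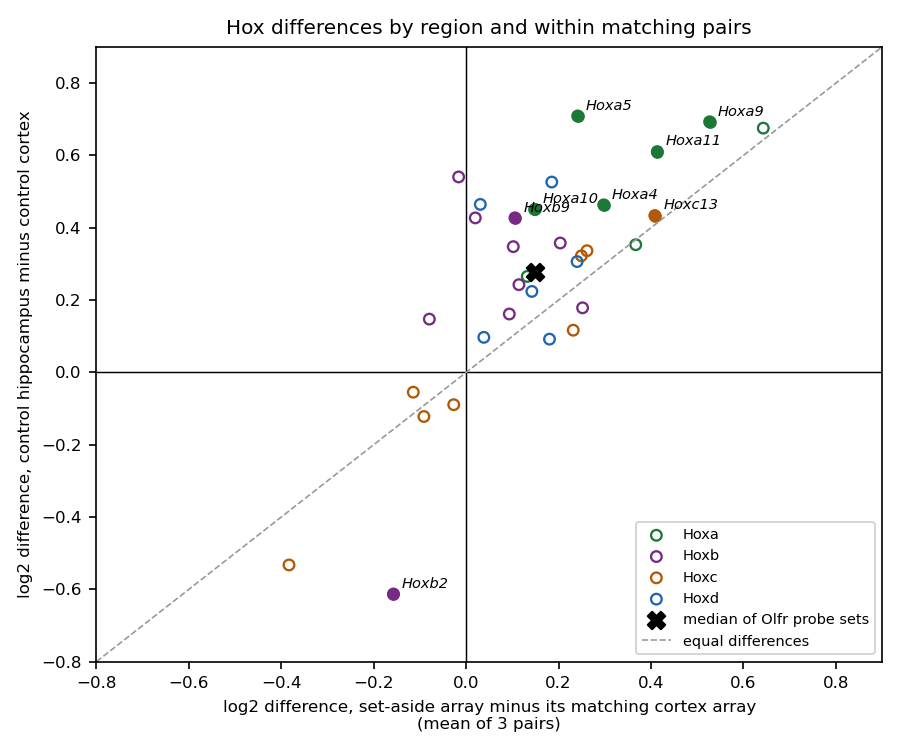
Each point is a Hox gene, with the mean log2 difference over the 3 matching pairs, array set aside minus cortex array, on the horizontal axis and the log2 difference between control hippocampus and control cortex on the vertical axis. Filled points are the 8 genes called between regions, the cross is the Olfr median (0.15, 0.28), and the dashed line marks equal differences; Hoxc13 lies near that line and Hoxa5 well above it.

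Among the cKO cortex arrays, cKO 3 stood apart in Hox signal. It was the highest of the 4 for 19 of 32 Hox genes (59.4%), against 32.4% of Olfr probe sets and 25.2% of all probe sets, and the lowest for 0 Hox genes. Cortex cKO 3 exceeded cKO 2 by a median of 0.24, with 27 of 32 genes higher, and the Olfr median of this difference was 0.17. The matching arrays labelled hippocampus, cKO 1 and cKO 3, gave a median of 0.19, also with 27 of 32 higher, and the sign was the same in both pairs of arrays for 30 genes. Over the 32 genes the 2 differences correlated at Pearson r = 0.876, against 0.927 over all probe sets and 0.859 over Olfr probe sets. This correlation is across genes, which are not independent replicates, and both pairs of arrays share the matching profiles.

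Hoxb8 gave the largest such difference, 1.19 on the cortex arrays and 1.12 on their matching arrays. Hoxd3 gave 0.60 and 0.62, and Hoxc9 went the other way, with -0.43 and -0.41. Among the control cortex arrays, control 1 was the lowest for 17 of 32 Hox genes (53.1%), against 31.2% of Olfr probe sets and 16.9% of all probe sets. Without cortex cKO 3 the change in cortex was above 0 for 9 Hox genes, with a median of -0.07, and without cortex control 1 for 7 genes, with a median of -0.06. No Hox gene was called in either case. Deviations of Hox genes from their group means correlated across arrays with a median of 0.25 for 116 pairs of genes in the same cluster and 0.22 for 380 pairs in other clusters, against 0.05 for pairs of Olfr probe sets.

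**Figure D5:**
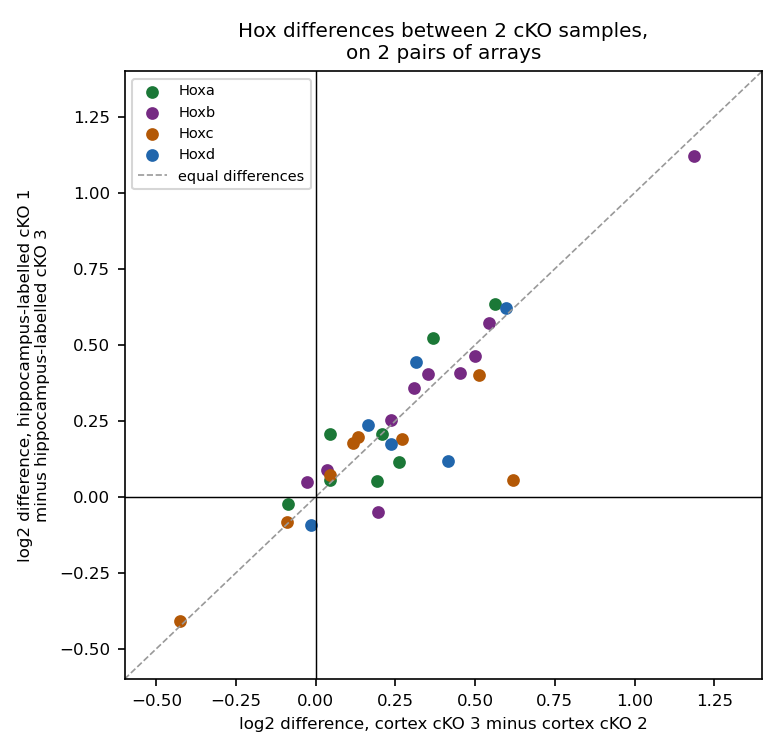
Each point is a Hox gene, coloured by cluster, with the log2 difference between cortex cKO 3 and cortex cKO 2 on the horizontal axis and between the matching arrays labelled hippocampus, cKO 1 and cKO 3, on the vertical axis; the dashed line marks equal differences. Most points lie above 0 on both axes, and Hoxb8 is at the upper right (1.19, 1.12).

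The genes that border the clusters did not pass either. Of 25 measured neighbours 0 were called in cortex in either direction, beside 0.591% of all probe sets called higher and 1.36% called lower. Beside Hoxa, Evx1, a homeobox gene of spinal interneurons at the posterior end of the cluster, changed by 0.07, and Skap2, at the anterior side, by 0.44 (SE 0.11, adjusted p = 0.094), from 5.74 ± 0.22 to 6.18 ± 0.05 (SD, n = 4 each). Beside Hoxd, Evx2 changed by 0.08, and Lnpk, which shares limb enhancers with Hoxd, by -0.0049. Calcoco2 near Hoxb gave -0.60 (SE 0.19, adjusted p = 0.220), and its levels of 3.12 in control and 2.52 in cKO cortex were both under the Olfr median. Cbx5, near Hoxc, which encodes a heterochromatin protein, gave -0.19 (adjusted p = 0.403), and Igf2bp1, near Hoxb, gave -0.27 (adjusted p = 0.453).

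The Polycomb and Trithorax genes, which hold Hox clusters silent or active, gave no call. Of 29 Polycomb genes measured 0 were called in cortex, where 1.95% of all probe sets were called, with a median change of -0.02. The smallest p values belonged to Phf1 (-0.32, adjusted p = 0.097), Pcgf5 (-0.55, adjusted p = 0.099), Scmh1 (0.23, adjusted p = 0.159) and Ezh1 (-0.24, adjusted p = 0.372). Ezh2, the enzyme that writes the repressive mark in dividing cells, gave -0.19 (adjusted p = 0.708). Of 11 Trithorax and MLL complex genes 0 were called against the same 1.95%, with a median of -0.05. Kdm6a, a demethylase that removes the Polycomb mark, gave 0.26 (adjusted p = 0.407).

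Genes that act with or upstream of Hox genes did include calls. Of 14 retinoic acid genes 1 rose and 2 fell in cKO cortex, beside 0.591% of all probe sets called higher and 1.36% called lower. Aldh1a2, which makes retinoic acid, rose from 7.18 ± 0.06 to 7.68 ± 0.06 (SD, n = 4 each), a change of 0.50 (SE 0.07, adjusted p = 0.00949). Aldh1a3, another enzyme of that step, fell from 7.09 ± 0.12 to 6.18 ± 0.13, a change of -0.91 (SE 0.09, adjusted p = 0.00124). Cyp26b1, which breaks retinoic acid down, fell from 7.15 ± 0.07 to 6.31 ± 0.18, a change of -0.83 (SE 0.10, adjusted p = 0.00272). The list thus held a maker that rose, a maker that fell and a remover that fell. The retinoic acid receptors Rara and Rarg gave -0.06 (adjusted p = 0.817) and -0.25 (adjusted p = 0.206). The calls of Aldh1a2 and Aldh1a3 were lost when all 14 arrays entered as labelled, and that of Aldh1a2 also with Olfr centring, with the replicate number as a block and without cortex cKO 1 and 4, with adjusted p values of at most 0.162 for Aldh1a2 and 0.076 for Aldh1a3 over all alternatives. The call of Cyp26b1 was lost with the replicate number as a block (adjusted p = 0.0544).

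Of 7 Hox cofactors measured, 1 fell, beside 1.36% of all probe sets called lower. Meis2, a homeodomain partner of Hox proteins that is also active in forebrain neurons, fell from 9.72 ± 0.15 to 9.22 ± 0.12 (SD, n = 4 each), a change of -0.50 (SE 0.10, adjusted p = 0.0404). That call was lost with the replicate number as a block and without any single array other than cortex control 4 or hippocampus cKO 2, with adjusted p values over all alternatives of 0.0179 to 0.484. Meis1 gave 0.09 (adjusted p = 0.912) and Pknox1 -0.06 (adjusted p = 0.827). Of 22 non-Hox homeobox genes of forebrain, 2 fell against the same 1.36%, Meis2 and Tshz2, a zinc finger homeobox gene of deep-layer neurons, at -1.12 (SE 0.11, adjusted p = 0.00121).

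Of the 16 caudal neural genes 0 were called in cortex, beside 1.95% of all probe sets. Their median change was -0.02 in cortex and -0.08 in hippocampus. The marker lists of hindbrain and spinal cord, choroid plexus, microglia, endothelium, meninges and blood had 0 calls in cortex, against the same 1.95%. Each had only 2 to 8 measured members. The lists of hippocampus and cortical layer markers, with 3 measured genes each, had 1 call each in cortex, both lower. Grik4 gave -0.75 (SE 0.09, adjusted p = 0.00388) and Fezf2 -1.63 (SE 0.08, adjusted p = 4.7e-05). The call of Grik4 was lost with the replicate number as a block (adjusted p = 0.0533), among other alternatives. The mean level of the 6 microglial markers was 6.50 to 6.98 on control and 6.73 to 7.31 on cKO cortex arrays, with the groups overlapping and a median change of 0.27.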

How the data were processed

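RNA was hybridised to Affymetrix exon arrays, 14 in all. The authors deposited 1 log2 value per probe set and array, made with Affymetrix Expression Console, RMA and Partek 6.4 on build mm9, per the submitters' processing notes. The sources used here do not say which arrays were normalized together. Arrays give no counts, and their number limits the precision.

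The values of 23332 probe sets were used unfiltered. Symbols came from the array's annotation (1 symbol for 14996 probe sets, several for 1019, none for 7317). Group means were fitted to 11 arrays with limma 3.58.1 in R 4.3.3 (eBayes, Benjamini-Hochberg over all probe sets), after a check on simulated data. SE is the moderated standard error. Calls needed an adjusted p under 0.05 and a fold above 1.2, the series' own thresholds. Labels number replicates within a group, and nothing states separate litters, so p-values measure the spread between these samples.

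Members, lists and tests were chosen with earlier results of these data known. Values by array were given for the 6 highest members, the 5 largest rises and 5 largest falls in cortex and the members called between regions, the last with cortex arrays as ranges and arrays set aside only as differences between pairs. From other lists, called members or up to 4 with the smallest p were named, cluster neighbours and Ctcf freely. The values of Hoxc5 and Hoxd13, and Ezh2, Rara, Rarg and the genes of other lists named between regions, were chosen after their values were seen. Alternatives are given in the closing section.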

Additional observations from a re-analysis of the deposited data

Results flagged for a closer look

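Hoxb3, an anterior gene of the hindbrain, was at 5.08 on cortex control 1, while the other 3 control cortex arrays were at 5.96 to 6.09. The gap, 0.868 of the group's range, exceeded Dixon's critical value for 4 samples. Over the 64 groups of 4 arrays checked, 32 genes in control and in cKO cortex, this was the 1 flag, and chance flags about 1 in 20 groups. Cortex control 1 was also the lowest control array for 17 of 32 Hox genes. The change of Hoxb3 in cKO cortex was -0.11 (SE 0.21, adjusted p = 0.926).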

How the results depend on the processing

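The count of 0 Hox genes called was the same in cortex under 23 alternatives, in hippocampus under 22, and in the average and the difference under 21 each, with smallest adjusted p values of 0.210, 0.507, 0.287 and 0.645. The Hox median in cortex ran from -0.07 to 0.07, and 12 to 18 genes exceeded the Olfr guide. Between control regions the count of 8 rose to 9 with only the probe sets above the Olfr median. It fell to 5 with all 14 arrays, trend with robust moderation, or array weights. It fell to 4 with the Y-linked covariate, quantile normalization, array medians or without cortex cKO 1 and 4. With Olfr centring it was 3, and with the compared groups alone 2. Leaving out each array in turn gave 1 to 8. With the replicate block it was 0, and the cortex calls of Grik4 (adjusted p = 0.0533), Cyp26b1 (0.0544), Aldh1a2 (0.118) and Meis2 (0.123) were lost. Same-numbered control and cKO cortex arrays deviated from their group means with correlations of 0.05, -0.06, 0.02 and -0.02. The numbers were not taken to pair arrays. The same-numbered controls of the 2 regions gave -0.21 and -0.05. The 2 hippocampus controls deviate from their mean as mirror images, so these 2 values cannot show whether the numbers pair the regions. The cause of these changes in calls was not tested. Hoxa6 in cortex reversed to -0.020 with the Y-linked covariate, and it ran from -0.079 to 0.308 without each array in turn. Probe sets called in cortex numbered 455, against 118 with the replicate block, 282 with the Y-linked covariate and 186 with Olfr centring. There were 212 without cortex cKO 1 and 4, and 273 to 455 without each array. Other alternatives gave more: 646 with array weights, 597 with quantile normalization and 583 with array medians. Trend with robust moderation gave 575, and the probe sets above the Olfr median gave 509. Between regions 2913 were called, against 402 with the replicate block, 635 with all 14 arrays, 1127 with the compared groups alone, 1772 with the Y-linked covariate, 5470 with Olfr centring, 597 without hippocampus control 1, 1544 without hippocampus control 3 and 1907 without cortex control 3. Olfr centring and the fit without cortex cKO 1 and 4 were chosen after the data were seen. Averaging a gene's probe sets was not run because each gene had 1, and hippocampus comparisons have no value without their only cKO array. Signal near background limits what can be seen: 18 members did not exceed the Olfr 95th percentile.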
